A study of Homo sapiens with 15 samples.

Results

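Passaged cultures of H1 human embryonic stem cells were compared with NP-ctrl cultures (not passaged) on day 7 and on day 10 of cardiac differentiation, and the comparison was paired by day. A gene entered the comparison with 30 or more counts in any of the 4 libraries. This kept 16095 of the 60605 genes in the table, 13726 of them protein-coding. H1 is an established line, labelled wild type, and all cultures came from it. In both arms the cells were switched on day 0 to DF medium with CHIR99021, which activates WNT signalling, and received insulin on day 1. NP-ctrl cells then stayed in their wells and differentiated in DF medium without a further inducer. Passaged cells were dissociated on day 2, replated into new Matrigel-coated wells at a lower density and left in DF medium without a WNT inhibitor. Dissociation, the new surface, the density and any ROCK inhibitor or insulin given at replating arrived together in the passaged arm and cannot be told apart. The series held 15 libraries with 1 library for each arm and day, and biological replicates were therefore lacking for every value.

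Mesendoderm that forms after WNT activation can go on to heart muscle, to other mesoderm such as epicardium, fibroblasts and endothelium, or to endoderm of the yolk sac and liver. Heart muscle cells are recognised by the sarcomere, whose thick filaments of myosin slide on thin filaments of actin and troponin between Z-discs, and by the pumps and channels that move calcium with each beat. As they mature they leave the cell cycle and come to depend on mitochondrial respiration. Bulk RNA sequencing reads the average over whatever cells are in the well, so a transcript that is lower because fewer cells of a type are present and one that is lower because each cell holds less of it cannot be told apart.

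Total counts were between 13254723 and 15216645 in the 4 libraries, and 26906 to 30269 genes were above 0. Levels are given as FPKM, that is, counts corrected for the length of the gene's exons and for library depth. The arms were compared on each day by the ratio of counts per total count, with any count of 3 or less set to 3. A gene was called higher or lower in passaged cells on a day when the ratio was at least 2-fold and its exact 95% interval excluded 1. That interval covers counting error only. A ratio against 0 is written as at least the value that 3 counts would give. Where a count was 1 to 3 and a ratio is printed, it is that of the counts themselves, with its exact 95% interval. The labelled cell type was checked first. The 6 cardiomyocyte markers summed to 560 and 431 FPKM in NP-ctrl on days 7 and 10 and to 2721 and 3308 in passaged cells, and all 6 were higher on both days. Of the markers of undifferentiated cells, POU5F1 and NANOG did not reach the filter, and SOX2 was the exception described below.

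On day 7, 1299 genes (8.07%) were higher and 2521 (15.7%) lower in passaged cells. On day 10, 1505 genes (9.35%) were higher and 3324 (20.7%) lower. Both days gave the same call for 839 higher genes (5.21%) and 1848 lower genes (11.5%). A change was counted for 1 day only when it was called on that day, was under 1.5-fold on the other day, and the 2 ratios differed beyond counting error. By that rule 198 genes were higher on day 7 only (1.23%), 275 lower on day 7 only (1.71%), 272 higher on day 10 only (1.69%) and 737 lower on day 10 only (4.58%). A further 73 genes (0.454%) were called in opposite directions on the 2 days. Another 1647 genes were called on 1 day and lay between these groups, and 10206 were called on neither day. The median log2 ratio over all genes was -0.13 on day 7 and -0.15 on day 10. Higher genes made up 34% of the calls on day 7 and 31.2% on day 10. With TMM scaling these shares were 39.8% and 38.4%, with TPM 27.4% and 19.3%, and with the mitochondrial genome left out of the totals 36.2% and 36.4%. TMM scaling moved the ratio of every gene up by 0.10 on day 7 and by 0.15 on day 10 on the log2 scale, and TPM moved it by -0.14 and -0.29.

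**Figure D1:**
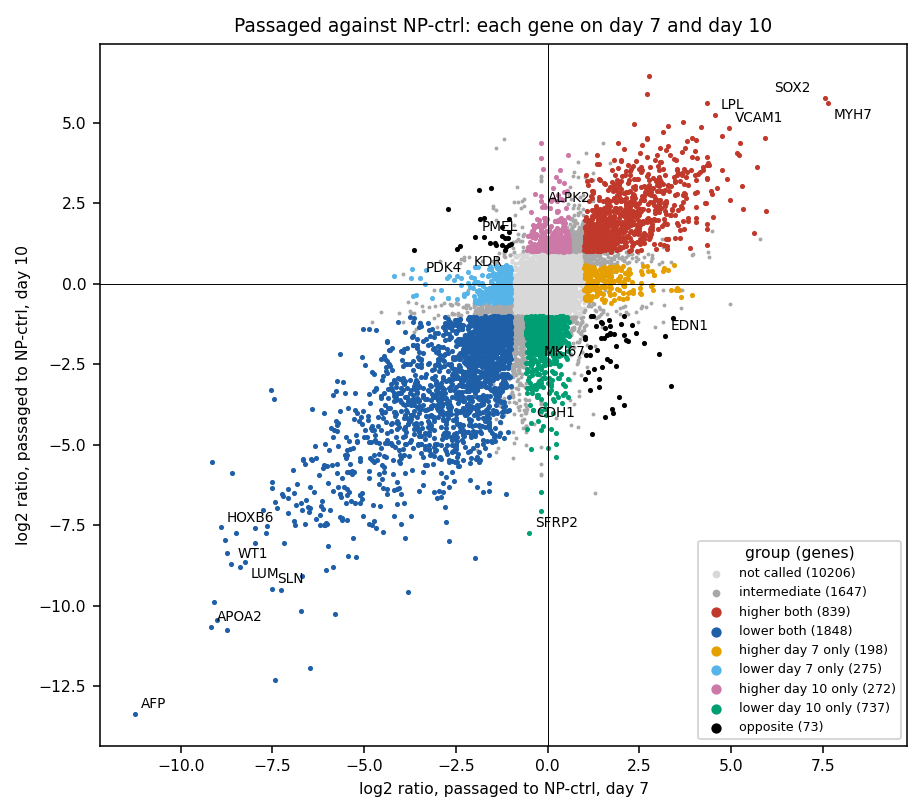
Each point is 1 gene, with the log2 ratio of passaged to NP-ctrl on day 7 on the x axis and on day 10 on the y axis, coloured by group, and with counts of 3 or less set to 3. The 839 genes higher on both days and the 1848 lower on both days lie along the diagonal, and the lower genes reach further from 0 than the higher ones.

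The genes that were lower moved further than those that were higher. Among the 839 higher genes the median ratio was 3.73-fold on day 7 and 3.78-fold on day 10, and 101 and 95 of them reached 10-fold. Among the 1848 lower genes the median was 4.27-fold on day 7 and 6.57-fold on day 10, and 465 and 703 of them reached 10-fold. For 66% of the lower genes the ratio was larger on day 10, against 54.5% of the higher genes. In 222 of the lower genes a passaged count of 3 or less limited the ratio on both days. By the same 2-fold rule, passaged cells on day 7 were above NP-ctrl cells on day 10 for 643 of the 839 higher genes (76.6%). They were below them for 1615 of the 1848 lower genes (87.4%). The genes were chosen on these same libraries, so high shares are largely built in and say nothing of timing.

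The difference between the arms was also tested over the 4 libraries with edgeR, with day as a block and 1 residual degree of freedom. The spread in this test is how far the arm difference disagreed between the 2 days, and it says nothing of how separate differentiations would vary. At an adjusted p under 0.05, 1268 genes (7.88%) were higher and 1466 (9.11%) lower in passaged cells. These took in 695 of the 839 genes higher on both days (82.8%) and 1268 of the 1848 lower on both days (68.6%). Of the genes called on 1 day only, 13 of those higher on day 7, 0 of those lower on day 7, 18 of those higher on day 10 and 2 of those lower on day 10 passed. The groups were formed by whether the same 2 days agreed, so the high and low numbers passing are largely built in. At an unadjusted p under 0.05, 5446 genes passed edgeR. Adjusted p values below are those of this edgeR test over all 16095 genes.

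Sarcomere genes were higher in passaged cells on both days. Of 11 thick filament genes above the filter, 7 were higher on both days and 0 were lower on both, with a median log2 ratio of 2.86 on day 7 and 2.94 on day 10. Of 15 thin filament genes, 11 were higher on both days and 1 was lower (medians 1.68 and 1.99). Of 19 genes of the Z-disc and titin, 16 were higher on both days and 1 was lower (medians 2.61 and 2.75). Of the 19, 18 had a ratio above 1 on each day. edgeR called 7, 10 and 17 members of the 3 lists higher. Over all genes, 5.21% were higher and 11.5% lower on both days, and these shares stand beside every list below.

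MYH7, the slow beta myosin heavy chain, had 1.20 and 4.26 FPKM in NP-ctrl on days 7 and 10 and 241 and 209 FPKM in passaged cells. The ratio was 200.3-fold on day 7 and 49.0-fold on day 10 (edgeR log2 change 6.72, SE 0.60, adjusted p = 0.00349). It was low in both NP-ctrl libraries and high in both passaged ones. MYH6, the alpha myosin heavy chain, was already abundant in NP-ctrl, at 116 and 123 FPKM, and reached 778 and 1013 FPKM in passaged cells, 6.73-fold and 8.24-fold more (adjusted p = 0.00416). MYH6 and MYH7 are near-identical neighbours, so reads could be split between them, and their separate values are uncertain. MYL3, the ventricular essential light chain, stood at 7.61 and 27.3 FPKM in NP-ctrl and at 156 and 356 in passaged cells. MYL7, the atrial regulatory light chain, stood at 395 and 243 FPKM in NP-ctrl and at 1585 and 1868 in passaged cells, 4.01-fold and 7.70-fold more. The ventricular regulatory light chain MYL2 was listed at 0 FPKM in both NP-ctrl libraries and in passaged cells on day 7, and at 1.48 FPKM in passaged cells on day 10. MYBPC3, the myosin-binding protein C of heart, had 21.3 and 33.2 FPKM in NP-ctrl and 149 and 240 in passaged cells. MYOM1, which ties myosin at the M-band, went from 4.50 and 11.4 FPKM to 80.3 and 126, 17.8-fold and 11.1-fold more. Not every thick filament gene went this way: MYOM2, an M-band protein, was 2.00-fold lower on day 7 and 3.60-fold lower on day 10, with a day 7 ratio just under the threshold.

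Thin filament genes showed the same order. ACTC1, the cardiac actin, had 222 and 207 FPKM in NP-ctrl and 2575 and 2147 FPKM in passaged cells, 11.6-fold and 10.4-fold more (edgeR log2 change 3.58, SE 0.28, adjusted p = 0.00281). ACTA1, skeletal actin, was at 1.17 and 1.06 FPKM in NP-ctrl and at 15 and 34.7 in passaged cells. TNNC1, the calcium-binding troponin of heart and slow muscle, went from 31.2 and 33.4 FPKM to 531 and 359. TNNT2, cardiac troponin T, differed less, at 16.5 and 21.8 FPKM in NP-ctrl against 39.4 and 55.5 in passaged cells. TPM1, a tropomyosin found in many cell types, was the member called on neither day, at 1.57-fold and 1.47-fold. LMOD2, a nucleator of thin filament actin, was 12.6-fold and 10.6-fold higher. The lower member was TNNT1, slow skeletal troponin T, which was at or under 1.33 FPKM in every library.

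At the Z-disc, CSRP3, a stretch-sensing LIM protein, had 0.92 and 4.46 FPKM in NP-ctrl and 25.1 and 52.2 in passaged cells. ANKRD1, a titin-binding ankyrin repeat protein, was 22.4-fold higher on day 7 (21.5 against 483 FPKM) and 6.92-fold higher on day 10 (17.8 against 123 FPKM). The small muscle protein SMPX was 13.9-fold and 11.0-fold higher, and TTN, which encodes titin, 4.90-fold and 4.65-fold higher. DES, the muscle intermediate filament desmin, was the member that was lower, with 34.9 and 80.9 FPKM in NP-ctrl against 11.2 and 19.7 in passaged cells (adjusted p = 0.00549). FLNC, the muscle filamin, was called on neither day.

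The promoters of some of these genes are shown, picked by hand from genes higher on both days. They are the 120 bases before the RefSeq start of each gene, read 5′ to 3′ on the strand of the gene, on GRCh38.p14. ACTC1 lies at chr15:34795550-34795669 on the minus strand, ACTA1 at chr1:229434095-229434214 (minus), MYL7 at chr7:44141333-44141452 (minus), MYBPC3 at chr11:47352703-47352822 (minus), and SMPX at chrX:21758117-21758236 (minus). COX6A2, the heart and muscle form of a cytochrome oxidase subunit described below, lies at chr16:31428361-31428480 (minus). Capitals mark every match to the motifs searched on both strands: the CArG box bound by SRF, the MEF2 site, TATAAA for the TATA box, AGATAA as read by GATA factors, AAGTGG as read by the factor NKX2-5, CATTCC as read by TEAD factors, TGTTTAC as read by forkhead factors, CAGCTG as an E-box, CCAAT as the site of NF-Y, and TTTGAA as the CHR element of cell cycle genes.
ACTC1: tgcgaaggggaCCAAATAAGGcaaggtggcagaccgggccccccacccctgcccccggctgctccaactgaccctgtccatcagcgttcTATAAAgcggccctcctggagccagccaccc
ACTA1: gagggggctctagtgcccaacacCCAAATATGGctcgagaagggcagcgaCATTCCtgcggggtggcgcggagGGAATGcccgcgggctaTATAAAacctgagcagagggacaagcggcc
MYL7: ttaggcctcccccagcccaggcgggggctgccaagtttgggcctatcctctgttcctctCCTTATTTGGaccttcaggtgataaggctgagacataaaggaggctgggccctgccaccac
MYBPC3: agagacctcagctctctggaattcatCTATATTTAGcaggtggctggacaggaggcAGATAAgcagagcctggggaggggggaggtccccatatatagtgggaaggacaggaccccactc
SMPX: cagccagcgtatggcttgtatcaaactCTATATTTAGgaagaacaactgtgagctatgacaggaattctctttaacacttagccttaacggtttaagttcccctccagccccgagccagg
COX6A2: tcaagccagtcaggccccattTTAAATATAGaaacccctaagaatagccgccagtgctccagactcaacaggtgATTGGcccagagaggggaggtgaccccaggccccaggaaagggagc

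In these windows the CArG box began 109 bases before the start in ACTC1, 97 in ACTA1 and 61 in MYL7, and the MEF2 site began 94 bases before the start in MYBPC3, 93 in SMPX and 99 in COX6A2. Over 250 bases before the start, a MEF2 site was found in 7 of 32 genes of the muscle lists (21.9%), in 28 of 545 genes higher on both days (5.14%) and in 2.90% of all 27305 promoters of the table. The CArG box was found in 5 of the 32 (15.6%), in 18 of the 545 (3.30%) and in 1.14% of all promoters. Among protein-coding genes above the filter the MEF2 site was in 1.49% and the CArG box in 1.11%. The GATA, TEAD and E-box matches were each in 9 of the 32 (28.1%), and TATAAA in 8 (25%). These are matches of letters, not measured binding. Each printed muscle gene holds a CArG box or a MEF2 site, so the printed genes do not stand for the lists. MYL7 and MYBPC3 were chosen for printing after their values were seen.

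Calcium handling genes were mostly higher as well. Of 14, 10 were higher on both days and 1 was lower (medians 2.21 and 2.36), and edgeR called 10 higher and 1 lower. SLC8A1, the sodium-calcium exchanger, had 3.03 and 7.01 FPKM in NP-ctrl and 27.0 and 52.1 in passaged cells. RYR2, the calcium release channel, was 5.00-fold and 4.33-fold higher. HRC and SRL, proteins of the sarcoplasmic reticulum, were 7.89-fold and 7.36-fold and 13.5-fold and 9.90-fold higher. CACNA1C, the L-type calcium channel, was called on neither day, at 5.19 and 3.23 FPKM in NP-ctrl against 4.89 and 6.42. PLN, which restrains the calcium pump, was 4.03-fold higher on day 7 and 9.21-fold higher on day 10 (8.10 against 74.6 FPKM). The pump itself, ATP2A2, was under the threshold on day 7 (1.44-fold) and 2.13-fold higher on day 10. SLN, which encodes sarcolipin, the pump regulator of atrial muscle, ran the other way. It had 284 and 154 FPKM in NP-ctrl and 1.55 and 0.22 FPKM in passaged cells, 184-fold lower on day 7, and on day 10 the passaged library held 3 counts against 1884 (adjusted p = 0.00149).

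Ion channels and connexins were divided. Of 16, 4 were higher on both days and 5 lower (medians 0.21 and -0.45). KCNIP2, the subunit of the transient outward potassium current, was 10.1-fold higher on day 7 (3.40 against 34.2 FPKM) and 4.42-fold higher on day 10. KCNJ3, a subunit of the acetylcholine-gated potassium channel of atrial muscle, had 17.5 and 13.1 FPKM in NP-ctrl, or 1141 and 868 counts, and 0 counts in both passaged libraries, which made it at least 430-fold and at least 327-fold lower. KCNA5, the channel of the ultrarapid atrial potassium current, had 4.64 and 6.87 FPKM in NP-ctrl and 0.21 and 0.38 in passaged cells. GJA1, the connexin of working muscle and many other cells, had 100 and 93.1 FPKM in NP-ctrl and 32.8 and 5.21 in passaged cells, 3.05-fold and 17.9-fold lower. CACNA1G, a T-type calcium channel, was 6.18-fold and 16.6-fold lower. HCN4, the pacemaker channel, was called on neither day, at 11.1 and 28.3 FPKM in NP-ctrl against 13.8 and 21.9.

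Among the natriuretic peptides and their receptors, 1 of 6 was higher and 1 lower on both days (medians -0.30 and 0.38). NPPB, a natriuretic peptide of stretched and young heart muscle, was 3.77-fold higher on day 7 and 20.7-fold higher on day 10 (3.78 against 78.3 FPKM). NPPA was at 0.47 and 0.40 FPKM in NP-ctrl and at 0.60 and 4.64 in passaged cells, and so was higher on day 10 only. NPR1, the receptor of both peptides, had 29.3 and 28.5 FPKM in NP-ctrl and 0.24 and 0.17 in passaged cells, 121-fold and 165-fold lower, and was near 0 in both passaged libraries (edgeR log2 change -6.99, SE 0.25, adjusted p = 0.000798).

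**Figure D2:**
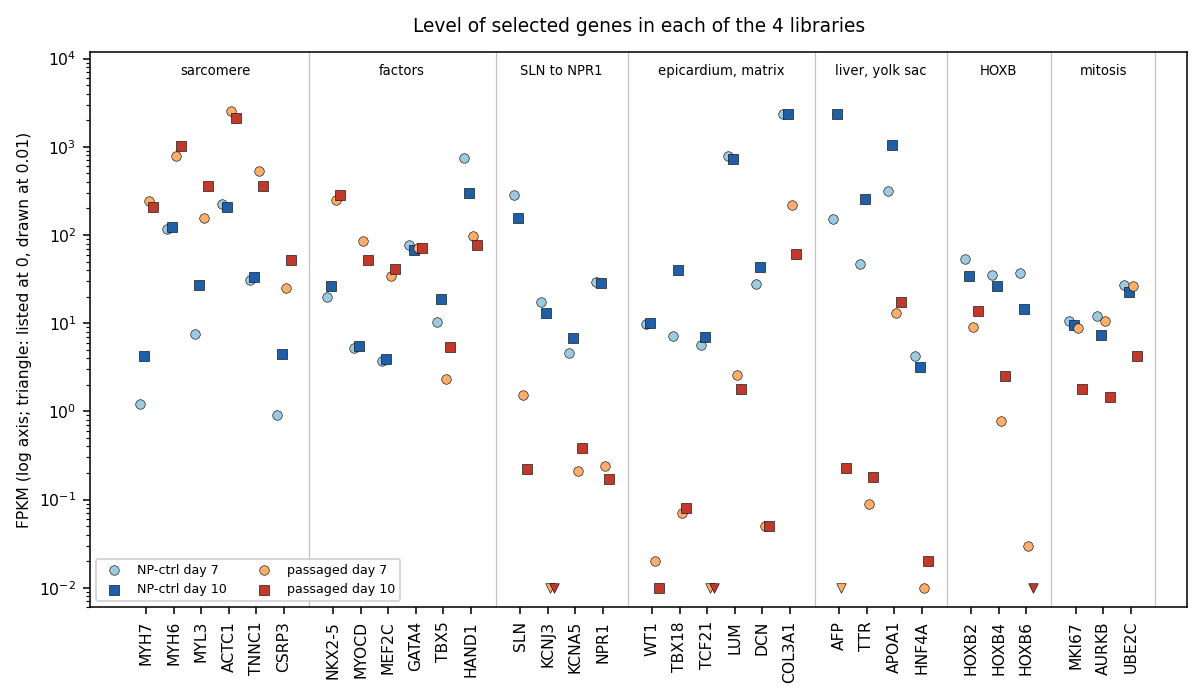
FPKM on a log axis for selected genes in each of the 4 libraries, with circles for day 7, squares for day 10, blue for NP-ctrl and orange or red for passaged, and with triangles for values listed at 0. Sarcomere genes such as MYH7 (1.20 and 4.26 against 241 and 209 FPKM) are higher in passaged cells, genes of epicardium, liver and HOXB are lower, GATA4 overlaps, and the mitosis genes part only on day 10.

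Cardiac transcription factors did not move as 1 block. Of 24, 7 were higher on both days and 4 lower (medians 0.45 and 0.69). NKX2-5, a homeobox factor of early heart muscle, had 19.9 and 26.2 FPKM in NP-ctrl and 252 and 287 FPKM in passaged cells, 12.7-fold and 11.0-fold more (edgeR log2 change 3.69, SE 0.21, adjusted p = 0.00154). MYOCD, the muscle coactivator of SRF, went from 5.28 and 5.54 FPKM to 86.3 and 51.6, and MEF2C from 3.75 and 3.89 FPKM to 34.4 and 40.9. TBX20 was 2.68-fold and 4.72-fold higher, and PROX1 4.18-fold and 4.57-fold higher. ISL1, a marker of the second heart field, was 3.96-fold and 2.19-fold higher, and it was lower on day 10 than on day 7 in both arms (12.1 to 7.75 FPKM in NP-ctrl, 47.8 to 17.0 in passaged cells).

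The lower factors were HAND1, TBX5, NR2F1 and NR2F2. HAND1, known from the first heart field and from extraembryonic mesoderm, had 748 and 298 FPKM in NP-ctrl and 98.4 and 77.2 FPKM in passaged cells, 7.60-fold and 3.87-fold lower (adjusted p = 0.00952). TBX5, a T-box factor of the first heart field and atria, had 10.3 and 19 FPKM in NP-ctrl and 2.34 and 5.43 in passaged cells (adjusted p = 0.00566). NR2F2, a nuclear receptor of atrial muscle and veins, was 2.03-fold and 2.81-fold lower, and NR2F1, low in every library, 5.53-fold lower on day 7. GATA4 and GATA6, zinc finger factors of heart and endoderm, were called on neither day: GATA4 had 77.4 and 68.3 FPKM in NP-ctrl and 71.9 and 71.7 in passaged cells. TBX2 and TBX3, T-box repressors of the non-chamber heart, were higher on day 10 only, TBX2 at 24.8 and 20.2 FPKM in NP-ctrl against 20.8 and 73.3 in passaged cells.

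Many genes of mitochondrial energy use were higher in passaged cells by modest ratios. All 39 nuclear genes of the respiratory chain had a ratio above 1 on both days, 23 were called higher on both and 0 lower (medians 1.08 and 1.35), and edgeR called 33 higher. With TPM 15 of the 39 were called higher on both days. ATP5F1B, the beta subunit of ATP synthase, had 223 and 232 FPKM in NP-ctrl and 609 and 800.0 in passaged cells, 2.73-fold and 3.45-fold more (adjusted p = 0.01). COX6A2 had 1 count against 28 on day 7, a ratio of 24.8 on the counts themselves (95% interval 4.09 to 1012) or of 8.25 with the 1 count set to 3, and was 11.7-fold higher on day 10 (0.94 against 11.0 FPKM). ATP5MC1, a ring subunit of ATP synthase, was 4.22-fold and 4.48-fold higher, and NDUFB10 of complex I, at 1.55-fold and 1.53-fold, was called on neither day. The 13 protein genes of the mitochondrial genome were above 1 in every case, with medians of 0.93 and 1.5. Of these, 4 were called higher on both days, and all 13 were called on day 10. MT-CYB had 1640 and 1829 FPKM in NP-ctrl and 3638 and 5514 in passaged cells. The mitochondrial genome as a whole took 3.71% of counts in NP-ctrl and 6.14% in passaged cells on day 7, and 3.72% and 10.3% on day 10. The TMM, TPM and total-without-mitochondria shares above give how far this moves the calls.

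Of 21 TCA cycle genes, 9 were higher on both days and 0 lower (medians 0.97 and 1.14, 6 of 21 with TPM), among them IDH3A (2.94-fold and 3.98-fold) and SDHA (2.42-fold and 4.32-fold). Of 24 genes of fatty acid oxidation and energy transfer, 10 were higher on both days and 0 lower (medians 0.75 and 1.26). PPARGC1A, a coactivator of mitochondrial genes, had 1.48 and 2.47 FPKM in NP-ctrl and 12 and 20.2 in passaged cells, and its partner ESRRG was 8.22-fold and 9.86-fold higher. CKM, muscle creatine kinase, went from 3.54 and 15.1 FPKM to 66.7 and 189. ACADVL, an enzyme of very long chain fatty acid oxidation, was called on neither day, at 1.72-fold and 1.20-fold lower. Glycolysis genes were less uniform, with 4 of 20 higher on both days and 1 lower (medians 0.93 and 0.84). The hexokinase HK1 was 3.66-fold and 3.44-fold higher. ENO3, the muscle enolase, was 3.93-fold and 7.00-fold higher, while the general enolase ENO1 was 1.61-fold higher on day 7 and 1.07-fold lower on day 10 and was not called. SLC2A1, the glucose transporter GLUT1, was the lower member, with 116 and 109 FPKM in NP-ctrl and 12.8 and 5.28 in passaged cells (edgeR log2 change -3.64, SE 0.35, adjusted p = 0.00391). Of 13 hypoxia genes, 3 were higher and 4 lower on both days (medians -0.73 and -0.27). ADM, adrenomedullin, was 2.56-fold and 15.9-fold higher, LOX, lysyl oxidase, 3.55-fold and 11.7-fold lower, and VEGFA was called on neither day, at 15.1 and 12.7 FPKM against 9.13 and 18.5.

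Several of the genes with the largest ratios on both days were not muscle structural genes. SOX2, a factor of undifferentiated and neural cells, had 2 counts in each NP-ctrl library and 638 and 187 counts in passaged cells, or 16.9 and 4.89 FPKM. On the counts themselves the ratios were 282 on day 7 (95% interval 77.8 to 2334) and 82.7 on day 10 (22.6 to 688), and with the NP-ctrl counts set to 3 they were 188 and 55.1. SOX2 lies inside the transcript SOX2-OT, so without strand its counts are uncertain. VCAM1, an adhesion protein found on early cardiac cells, had 2.74 and 13.2 FPKM in NP-ctrl and 84.1 and 379 FPKM in passaged cells, 30.7-fold and 28.7-fold more (edgeR log2 change 5.01, SE 0.24, adjusted p = 0.00142). LPL, lipoprotein lipase, was 23.7-fold and 37.9-fold higher, SMYD1, a muscle methyltransferase, 15.3-fold and 15.4-fold, and TDGF1, the NODAL co-receptor, 20.5-fold and 48.8-fold. LEFTY2, a NODAL antagonist, had 1 count against 205 on day 7 and was 23.0-fold higher on day 10. ACADL, a long chain fatty acid dehydrogenase, was 37.5-fold and 15.9-fold higher, SYT13, a synaptotagmin, 36.1-fold and 16.9-fold, the muscle heat shock protein HSPB3 16.4-fold and 21.9-fold, and C1orf105 37.7-fold and 20.6-fold. TXLNB, a muscle taxilin, had 3 counts against 91 on day 7 and was 24.1-fold higher on day 10. Both NP-ctrl libraries were under 1 FPKM for these 5 genes. The adhesion molecule CDH2, which joins heart muscle cells, had 22.6 and 40.3 FPKM in NP-ctrl and 108 and 195 in passaged cells.

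**Figure D3:**
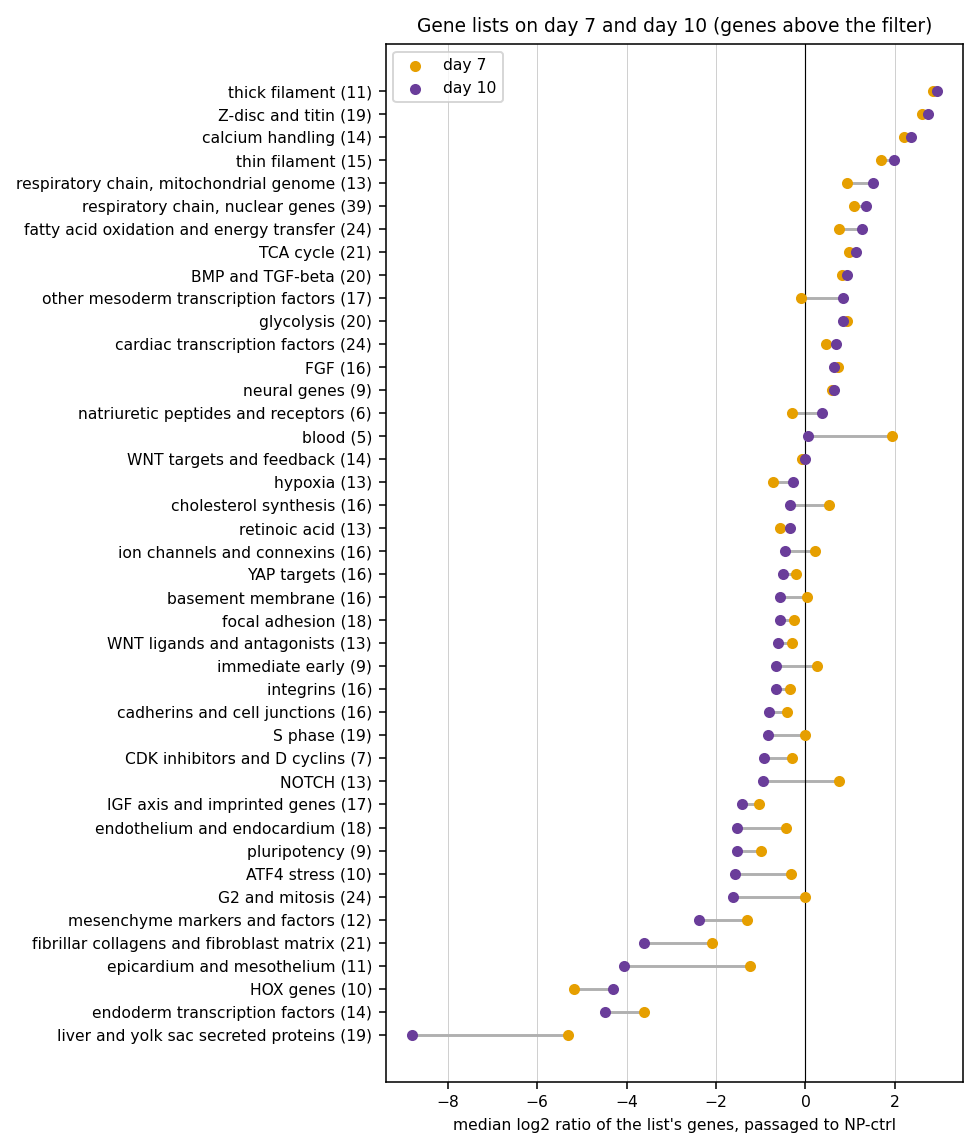
Median log2 ratio of passaged to NP-ctrl on day 7 (orange) and day 10 (purple) for each gene list, with the number of genes above the filter in brackets. Lists of the sarcomere and calcium handling lie between 1.68 and 2.94, and liver and yolk sac proteins lie at -5.30 and -8.80.

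Marker lists of other cell types were mostly lower in passaged cells. All 5 epicardium markers were lower on both days, and their summed level was 67.5 and 123 FPKM in NP-ctrl and 1.52 and 0.65 in passaged cells, where 2 and 3 of the 5 were at or under 3 counts. WT1, TBX18, TCF21 and UPK3B of these markers reached the filter in NP-ctrl only, so their direction was partly set by the filter. The wider list of epicardium and mesothelium had 6 of 11 genes lower on both days and 1 higher (medians -1.23 and -4.05). WT1, a zinc finger factor of the epicardium, had 1043 and 1097 counts in NP-ctrl (9.68 and 10.0 FPKM) and 2 and 1 counts in passaged cells (adjusted p = 0.000798). TBX18 had 7.13 and 40.6 FPKM in NP-ctrl and 0.07 and 0.08 in passaged cells, 103-fold and 535-fold lower. TCF21 had 276 and 342 counts in NP-ctrl and 0 in both passaged libraries, at least 104-fold and at least 129-fold lower. BNC1, a mesothelial zinc finger factor, was 38.4-fold and 111-fold lower.

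Most matrix genes of fibroblasts were lower in passaged cells, and more so on day 10. Of 21 fibrillar collagens and fibroblast matrix genes, 17 were lower on both days and 1 was higher (medians -2.10 and -3.61), and edgeR called 15 lower and 1 higher. The share lower on both days was 11.5% over all genes. Together the 21 took 4.65% and 4.96% of counts in NP-ctrl and 2.53% and 0.568% in passaged cells. COL3A1 held the most counts of any nuclear protein-coding gene in both NP-ctrl libraries. Its level there was 2360 and 2352 FPKM, against 218 and 61.2 FPKM in passaged cells (10.8-fold and 38.4-fold lower). COL1A1 was 4.28-fold lower on day 7 and 42.4-fold lower on day 10 (edgeR log2 change -3.62, SE 0.89, adjusted p = 0.0482). LUM, the proteoglycan lumican, had 778 and 723 FPKM in NP-ctrl and 2.57 and 1.80 in passaged cells, and DCN, decorin, 28.1 and 43.1 against 0.05 and 0.05. The member that was higher was COL2A1, the collagen of cartilage, which had 85.1 and 93.2 FPKM in NP-ctrl and 1059 and 503 in passaged cells (adjusted p = 0.00776). FN1, fibronectin, was 4.42-fold higher on day 7 and 1.82-fold lower on day 10, as its level in passaged cells went from 1055 to 191 FPKM.

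The 6 markers of fibroblasts and mesenchyme were all lower on both days, with summed levels of 3988 and 4057 FPKM in NP-ctrl and 413 and 96.2 in passaged cells. In the list of mesenchyme markers and factors 8 of 12 were lower on both days and 0 higher (medians -1.30 and -2.37). PRRX1, a homeobox factor of connective tissue precursors, was 81.2-fold and 32.5-fold lower. PDGFRA was 4.02-fold and 3.82-fold lower, and PDGFRB, the receptor of mural cells, 2.85-fold lower on day 7 and 30.1-fold lower on day 10. FMOD, fibromodulin, was 57.3-fold and 10.9-fold lower. SNAI2 and SNAI1, repressors of the epithelial state, were 6.53-fold and 16.8-fold and 6.13-fold and 8.71-fold lower. ADAM12, a metalloprotease of mesenchyme that was not on a list, had 26.6 and 21.1 FPKM in NP-ctrl and 0.07 and 0.10 in passaged cells.

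Cell contact genes were mixed. Of 16 basement membrane genes 1 was higher and 2 lower on both days (medians 0.03 and -0.56), of 16 integrins 4 and 5 (medians -0.35 and -0.67), of 18 focal adhesion genes 0 and 3 (medians -0.26 and -0.58), and of 16 cadherins and junction genes 3 and 6 (medians -0.42 and -0.82). Over all genes, 5.21% were higher and 11.5% lower on both days. The basement membrane and focal adhesion counts were near these shares. The cadherin and junction counts depended on the scaling. They were 5 higher and 4 lower with TMM, 5 and 5 without the mitochondrial genome, and 3 and 6 with TPM. NPNT, nephronectin, had 69.9 and 169 FPKM in NP-ctrl and 0.71 and 3.46 in passaged cells, and the integrin alpha chain ITGA8, its receptor subunit, 34.5 and 32.9 against 0.34 and 0.76. These 2 partners were 98.6-fold and 48.8-fold lower and 102-fold and 43.1-fold lower. ITGA7, the laminin-binding integrin chain of muscle, was 4.51-fold and 3.48-fold higher. ITGA11, a collagen-binding integrin chain, was 12.6-fold and 20.4-fold lower, and the common beta chain ITGB1 was called on neither day, at 36.4 and 46.2 FPKM against 54.1 and 46.2. LAMA5, the laminin chain of epithelial basement membrane, was 2.83-fold and 4.84-fold lower and LAMA4, that of vessels and muscle, 3.31-fold and 3.98-fold higher. TLN2, a talin, was 5.43-fold and 4.77-fold lower, while TLN1 was called on neither day. CDH1, the epithelial cadherin, was at 9.64 and 22.5 FPKM in NP-ctrl and at 7.03 and 1.12 in passaged cells, lower on day 10 only. CTNNA3, the alpha catenin of heart muscle junctions, was 3.13-fold and 6.09-fold higher.

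Of 18 genes of endothelium and endocardium, 5 were lower on both days and 0 higher (medians -0.43 and -1.52). Taken by day, 7 were called lower and 3 higher on day 7, and 13 lower and 0 higher on day 10, against 20.7% of all genes called lower on that day. TEK, the angiopoietin receptor, had 30.8 and 22.8 FPKM in NP-ctrl and 1.72 and 0.68 in passaged cells, and FLT1, a VEGF receptor, 8.50 and 9.22 against 1.76 and 0.57. PLVAP, a protein of endothelial fenestrae, was 11.8-fold and 9.45-fold lower. KDR, the VEGF receptor that also marks early cardiac mesoderm, was 4.49-fold lower on day 7 (133 against 29.7 FPKM) and level on day 10 (93.0 against 119 FPKM). PECAM1 and CDH5, which define endothelium, were at or under 1.62 FPKM in every library. No blood marker of the 5 checked reached the filter. Of 5 blood list genes above it, 2 were higher on both days and 0 lower (medians 1.93 and 0.05). They were LMO2 (2.29 and 3.64 against 30.2 and 26.0 FPKM) and GATA2 (1.87 and 1.20 against 7.15 and 8.44 FPKM), transcriptional regulators of blood and endothelial precursors, while the globin genes of the list and TAL1 did not reach the filter.

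Secreted proteins of liver and yolk sac had the largest median ratios of the 42 lists. Of 19, 16 were lower on both days and 0 higher (medians -5.30 and -8.80), and edgeR called 16 lower. The share lower on both days was 11.5% over all genes. The list took 0.416% of counts in NP-ctrl on day 7 and 1.9% on day 10, and 0.113% and 0.0867% in passaged cells. AFP, alpha-fetoprotein, had 153 and 2366 FPKM in NP-ctrl. Passaged cells had 0 counts on day 7 against 6488, at least 2446-fold lower, and 0.23 FPKM on day 10. APOA2 had 1537 and 4279 counts in NP-ctrl and 3 and 0 in passaged cells. TTR, transthyretin, had 47.1 and 253 FPKM in NP-ctrl and 0.09 and 0.18 in passaged cells, and FGB, the fibrinogen beta chain, was 337-fold and 444-fold lower. AHSG, fetuin A, had 15.6 and 454 FPKM in NP-ctrl and 0.09 in each passaged library. AFP, APOA2, TTR, FGB and AHSG reached the filter in NP-ctrl only, so their direction was partly set by the filter. The medians and the lower count of the list carry that limit. ALB, albumin, did not follow: its level was 0.81 and 5.28 FPKM in NP-ctrl and 3.19 and 2.78 in passaged cells, higher on day 7 and 1.9-fold lower on day 10. Of the 19, 1 was lower on day 10 only and 2, ALB among them, lay between the groups. The 19 still summed to 524 and 400 FPKM in passaged cells, against 1863 and 7176 in NP-ctrl. Between day 7 and day 10 AFP became 15.5-fold higher and TTR 5.37-fold higher in NP-ctrl.

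The promoters of AFP (chr4:73436101-73436220, plus strand) and APOA2 (chr1:161223629-161223748, minus strand) are shown as those of genes abundant in NP-ctrl and near 0 in passaged cells, from the same source and with capitals for the same motifs.
AFP: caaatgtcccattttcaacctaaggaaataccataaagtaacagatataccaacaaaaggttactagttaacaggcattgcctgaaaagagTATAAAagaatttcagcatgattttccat
APOA2: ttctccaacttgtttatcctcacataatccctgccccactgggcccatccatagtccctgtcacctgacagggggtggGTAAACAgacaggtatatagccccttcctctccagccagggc

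AFP held a TATA box 29 bases before the start and APOA2 a forkhead match 42 bases before it on the other strand. Over 250 bases, each motif was in 1 of 15 promoters of the liver and yolk sac list (6.67%). The printed genes therefore do not stand for the list. The forkhead match was in 2.53% of genes lower on both days and in 1.89% of protein-coding genes above the filter. TATAAA was found in 9.76% of 1106 promoters of genes lower on both days, in 8.44% of 545 of those higher on both, in 5.52% of all 11031 protein-coding genes above the filter that matched the promoter table, and in 11.1% of all 27305 promoters, above both groups.

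Of 14 endoderm transcription factors, 11 were lower on both days and 1 higher (medians -3.61 and -4.49). HNF4A, a nuclear receptor of liver and gut, had 4.22 and 3.20 FPKM in NP-ctrl and 0.01 and 0.02 in passaged cells, and FOXA2, a forkhead factor of endoderm, 5.11 and 3.8 against 0.05 and 0. FOXA2 reached the filter in NP-ctrl only, so its direction was partly set by the filter. The higher member was PROX1, given above among the cardiac factors, since it also acts in heart muscle. Of 3 intestine markers 2 reached the filter, both in NP-ctrl only, and both were lower. The summed level of the 3 was at most 3.07 FPKM in any library. The 5 liver and yolk sac markers summed to 559 and 3785 FPKM in NP-ctrl and to 16.6 and 20.8 in passaged cells.

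HOX genes, which mark position along the body axis, were lower. Of 39, 10 reached the filter, and all 10 were lower on both days (medians -5.18 and -4.31) and were called lower by edgeR. The share lower on both days was 11.5% over all genes. HOXA13, HOXB5, HOXB6, HOXB7, HOXB8, HOXB13 and HOXC4 reached the filter in NP-ctrl only, so their direction was partly set by the filter. The medians and the count of all 10 carry that limit. HOXB2, HOXB3 and HOXB4 reached the filter in both arms and were lower on both days. Counts summed over the 39 HOX genes were 8192 and 5227 in NP-ctrl and 684 and 1071 in passaged cells. Nearly all of these counts came from the HOXB cluster, with 7963 and 5080 in NP-ctrl and 668 and 1064 in passaged cells. HOXB2 kept the most in passaged cells, 8.94 and 13.8 FPKM against 54.0 and 34.2 in NP-ctrl, 6.04-fold and 2.48-fold lower. HOXB4 was 45.7-fold and 10.6-fold lower, and HOXB5 had 30.9 and 18.5 FPKM against 0.14 and 0.14. HOXB6 had 1270 and 503 counts in NP-ctrl and 1 and 0 in passaged cells. HOXB7 had 5.96 and 3.52 FPKM in NP-ctrl and was listed at 0 in both passaged libraries. Genes further along the cluster from HOXB2 to HOXB6 had larger ratios on both days. The order did not hold for the whole cluster: HOXB13 had 76 and 51 counts in NP-ctrl and 9 and 3 in passaged cells. For HOXB7 the 0 counts give only a lower bound. Transcripts of the HOXB cluster overlap, so the split between neighbours is uncertain.

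Other mesoderm transcription factors went both ways, with 6 of 17 higher and 3 lower on both days (medians -0.09 and 0.84). Among the higher was SIX2, a homeobox factor of kidney precursors, which had 1 count against 166 on day 7 and was 3.01-fold higher on day 10. FOXC2 was 13.2-fold higher on day 7, with 4.12 FPKM in passaged cells. FOXF1, a forkhead factor of lateral plate mesoderm and gut mesenchyme, had 8.40 and 5.34 FPKM in NP-ctrl and 0 and 0.06 in passaged cells. MSX1 was 25.7-fold and 9.57-fold lower (166 and 55.8 against 6.45 and 5.83 FPKM). LHX2 was 43.5-fold and 14.6-fold lower. MAB21L2 and SHISA3, which were not on a list, had 39.5 and 20.5 and 38.3 and 21.0 FPKM in NP-ctrl and at most 0.16 FPKM in passaged cells. In the neural list 3 of 9 were higher and 3 lower on both days (medians 0.60 and 0.63), and the level came mostly from NES, nestin, at 38.3 and 41.3 FPKM in NP-ctrl and 130 and 99.2 in passaged cells. Of 9 pluripotency genes 2 were higher and 4 lower on both days (medians -0.99 and -1.52), the higher ones being SOX2 and TDGF1. The lower ones included ZFP42 (13.7 and 6.44 against 3.35 and 0.84 FPKM) and L1TD1 (7.62 and 3.12 against 1.46 and 0.15 FPKM).

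Signalling lists were split by member. In the FGF list 5 of 16 were higher and 4 lower on both days (medians 0.73 and 0.64). The ligands FGF8 (3.19 and 1.44 against 28.4 and 10.7 FPKM) and FGF10 (4.57 and 5.25 against 12.8 and 14.2 FPKM) were higher, as was ETV5, a target of FGF signalling, 8.92-fold and 8.57-fold. SPRY1, a feedback inhibitor of FGF receptors, was 12.1-fold higher on day 7 and 2.71-fold on day 10, and SPRY2 was called on neither day. The 4 lower genes were the receptors FGFR1 to FGFR4, of which FGFR4 was 18.2-fold and 85.2-fold lower. In the list of BMP and TGF-beta 5 of 20 were higher and 1 lower on both days (medians 0.81 and 0.93). BMP2 had 20.9 and 19.8 FPKM in NP-ctrl and 109 and 92.9 in passaged cells, and BMP7 was 4.72-fold and 5.48-fold higher. LTBP1, which holds latent TGF-beta in the matrix, was 5.81-fold and 4.79-fold higher, and TGFB1 itself was called on neither day. BMP4 was the lower one, with 94.8 and 45.2 FPKM in NP-ctrl and 27.0 and 3.33 in passaged cells (adjusted p = 0.0220).

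Among WNT ligands and antagonists 2 of 13 were higher and 3 lower on both days (medians -0.29 and -0.61). The secreted antagonists FRZB (343 and 368 against 15.6 and 7.13 FPKM) and SFRP5 (39.6 and 110 against 1.20 and 0.73 FPKM) were lower. WNT11, a ligand of heart development, was higher at 85.2 and 80.3 FPKM against 29.7 and 16.6. The list of WNT targets and feedback had 1 of 14 higher and 1 lower on both days (medians -0.07 and 0.00), the higher one being TNFRSF19 at 4.81-fold and 11.9-fold. These counts were near the shares over all genes, 5.21% higher and 11.5% lower on both days. In the NOTCH list 0 of 13 were higher and 1 lower on both days, and the median went from 0.75 on day 7 to -0.95 on day 10. NOTCH1 was 2.60-fold and 4.93-fold lower. The ligand JAG1 was 2.74-fold higher on day 7 (16.5 against 45.2 FPKM) and 1.93-fold lower on day 10, and the target HES1 was called on neither day. Of 13 retinoic acid genes 2 were higher and 2 lower on both days (medians -0.57 and -0.35): the receptor RARB was 7.91-fold and 9.37-fold higher, and the enzyme ALDH1A1 24-fold and 38.5-fold lower. The retinol receptor STRA6 was 3.89-fold and 3.82-fold lower, and the binding protein CRABP2 2.87-fold and 2.92-fold higher. Of 16 YAP targets 1 was higher and 3 lower on both days (medians -0.22 and -0.50). CCN2, a matricellular protein, was 6.70-fold higher on day 7 (34.5 against 231 FPKM) and 1.89-fold higher on day 10. AMOTL1 was 3.22-fold and 4.58-fold lower, and YAP1 itself was called on neither day, at 88.8 and 67.3 FPKM against 59.4 and 81.7.

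Of 17 genes of the IGF axis and imprinted genes, 8 were lower on both days and 0 higher (medians -1.05 and -1.41), and edgeR called 8 lower. The share lower on both days was 11.5% over all genes. IGF2, a fetal growth factor, had 79.6 and 112 FPKM in NP-ctrl and 4.61 and 1.35 in passaged cells, and its imprinted neighbour H19 had 34.4 and 28.5 against 1.24 and 0.16. DLK1 was 3.92-fold lower on day 7 and 364-fold lower on day 10, as it went from 4.93 to 73.0 FPKM in NP-ctrl and from 1.26 to 0.20 in passaged cells. IGFBP3 was 14.5-fold and 15-fold lower (284 and 221 against 19.6 and 14.8 FPKM). PLAGL1, an imprinted zinc finger factor, was 54.8-fold and 19.1-fold lower, and the imprinted PEG10 was called on neither day. IGFBP7 stood apart in the list, at 20.9-fold higher on day 7 (13.6 against 283 FPKM) and 1.97-fold higher on day 10. In the stress lists 0 of 10 ATF4 genes were higher and 2 lower on both days (medians -0.32 and -1.58), and 0 of 9 immediate early genes were higher and 2 lower (medians 0.25 and -0.66). Taken by day, 2 of the 10 ATF4 genes were called lower on day 7 and 6 on day 10, where 20.7% of all genes were. PHGDH, the entry enzyme of serine synthesis, was 2.52-fold and 5.46-fold lower, JUN 3.12-fold and 4.74-fold, and ATF3, on both lists, 2.5-fold and 3.61-fold.

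Most genes of G2 and mitosis were called lower in passaged cells on day 10 and not on day 7. Of 24 such genes, 19 were lower on day 10 only and 0 were called in the same direction on both days. Their median log2 ratio was -0.02 on day 7 and -1.63 on day 10, and 22 of the 24 were called lower on day 10. Over all genes, 4.58% were lower on day 10 only and 20.7% were called lower on day 10. Of 19 S phase genes, 9 were lower on day 10 only and 10 were called on neither day (medians -0.02 and -0.84). The mitosis list took 0.167% of counts in NP-ctrl and 0.170% in passaged cells on day 7, and 0.140% and 0.0474% on day 10. MKI67, the proliferation antigen, had 10.6 and 9.63 FPKM in NP-ctrl and 8.78 and 1.81 FPKM in passaged cells, 1.20-fold lower on day 7 and 5.33-fold lower on day 10. AURKB, the kinase of the chromosomal passenger complex, had 11.98 and 7.36 FPKM in NP-ctrl and 10.6 and 1.44 in passaged cells. UHRF1, a partner of DNA methylation at replication, had 7.02 and 4.48 against 6.46 and 1.12. CDT1, a licensing factor of replication, was 1.47-fold lower on day 7 and 3.07-fold on day 10, and PCNA, the polymerase clamp, at 49.3 and 39.0 FPKM against 48.5 and 23.3, was called on neither day. Only the passaged library of day 10 was apart for these genes. AURKA, a spindle pole kinase, was called on neither day, and the checkpoint kinase BUB1 was 2.06-fold higher on day 7 and 1.32-fold lower on day 10. Neither list had a gene that passed edgeR, whose spread is the disagreement between days. Of 7 CDK inhibitors and D cyclins 3 were lower on both days and 0 higher (medians -0.31 and -0.93), among them CDKN1C, with 118 and 189 FPKM in NP-ctrl and 41.2 and 35.4 in passaged cells. CCND2, cyclin D2, was 3.07-fold and 4.54-fold lower, and CDKN1A was 5.53-fold higher on day 7 and 1.70-fold on day 10.

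The promoters of MKI67 (chr10:128126424-128126543, minus strand) and CENPA (chr2:26785936-26786055, plus strand), which encodes the centromeric histone, are shown for this group.
MKI67: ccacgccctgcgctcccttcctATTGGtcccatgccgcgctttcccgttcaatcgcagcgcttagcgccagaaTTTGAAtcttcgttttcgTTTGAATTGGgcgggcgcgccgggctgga
CENPA: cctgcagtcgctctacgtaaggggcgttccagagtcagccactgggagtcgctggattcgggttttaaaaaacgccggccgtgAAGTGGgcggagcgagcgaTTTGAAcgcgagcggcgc

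MKI67 held TTTGAA 47 and 29 bases before the start and CCAAT on the other strand at 98 and 24 bases. In it the second TTTGAA and the second CCAAT overlap. CENPA held TTTGAA 18 bases before the start. TTTGAA was found in 10 of 19 matched genes of the mitosis list (52.6%), in 71 of 504 genes lower on day 10 only (14.1%), in 8.59% of protein-coding genes above the filter and in 13.6% of all promoters. CCAAT was found in 17 of the 19 (89.5%), in 41.5% of the 504 and in 33.0% of all promoters. CENPA was 1.63-fold lower on day 7 and 5.07-fold lower on day 10.

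**Figure D4:**
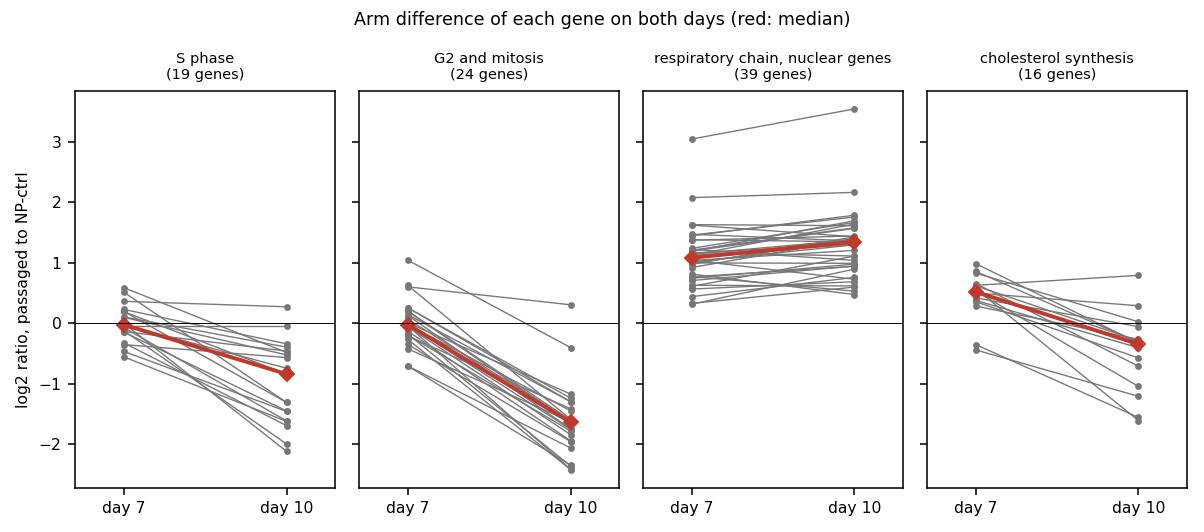
Log2 ratio of passaged to NP-ctrl on day 7 and day 10 for each gene above the filter in 4 lists, with 1 line per gene and the median in red. The mitosis genes go from a median of -0.02 to -1.63 while all 39 nuclear respiratory genes stay above 0 on both days.

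Some of the other named genes lower on day 10 only had become more abundant in NP-ctrl by day 10. SFRP2, a secreted WNT modulator, went from 0.76 to 21.0 FPKM in NP-ctrl and from 0.53 to 0.07 in passaged cells. MT1G, a metallothionein, and FETUB, a fetuin of liver, had 351 and 233 counts in NP-ctrl on day 10 and 0 in passaged cells, at least 132-fold and at least 87.8-fold lower. IGFBP5 went from 6.87 to 83.3 FPKM in NP-ctrl and from 6.30 to 3.90 in passaged cells. Of 16 cholesterol synthesis genes, 4 were lower on day 10 only and 0 were called on both days, and the median went from 0.52 to -0.34. HMGCS1, an early enzyme of that pathway, had 36.6 and 96.4 FPKM in NP-ctrl and 53.0 and 46.8 in passaged cells, and SREBF2, which drives it, was called on neither day.

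Among the genes higher on day 10 only, SERPINI1, a serine protease inhibitor, had 1.03 and 1.89 FPKM in NP-ctrl and 0.81 and 13.1 in passaged cells. ALPK2, a kinase of heart muscle, had 29.2 and 15.1 against 26.3 and 78.0. LAMA2, the laminin chain around muscle fibres, had 0.62 and 2.16 against 0.64 and 10.9, and the myosin MYH7B 0.85 and 1.95 against 1.02 and 11.7. In all 4 only the passaged library of day 10 stood above the other 3 by more than 2-fold.

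In the named genes lower on day 7 only, the passaged library of day 7 was low and that of day 10 was near NP-ctrl. PDK4, a kinase that holds back pyruvate oxidation, had 7.49 and 10.2 FPKM in NP-ctrl and 0.68 and 11.5 in passaged cells, 11.1-fold lower on day 7 and 1.13-fold higher on day 10. CNTN5, a neural adhesion protein, had 6.42 and 6.8 against 0.50 and 9.42. BMP5 had 79.8 and 94.7 against 19.96 and 108, and CHRM2, the muscarinic receptor of heart, 9.53 and 15.3 against 2.32 and 14.1. APOL2 had 5.90 and 5.13 against 0.66 and 3.75. In the named genes higher on day 7 only, the passaged library was above NP-ctrl on day 7 and within 1.5-fold of it on day 10. SPP1, osteopontin, had 1.39 and 1.10 FPKM in NP-ctrl and 10.1 and 1.06 in passaged cells. TCIM had 0.62 and 1.5 against 7.08 and 1.37, S100A4 3.83 and 5.81 against 12.8 and 3.89, and the transporter SLC16A12 2.55 and 7.16 against 11.5 and 5.31. MECOM had 2.90 and 5.60 against 17.1 and 6.89, HES4 11.3 and 17.4 against 51.2 and 14.4, and CCND1, cyclin D1, 8.11 and 21.6 against 26.9 and 19.9. In CCND1 and SLC16A12, among others, the level in NP-ctrl also rose between the days.

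Which arm changed between the days was counted by the same rule within each arm. Over all genes, 1056 (6.56%) were higher and 460 (2.86%) lower on day 10 than on day 7 in NP-ctrl, and 1037 (6.44%) higher and 1510 (9.38%) lower in passaged cells. Of the 737 genes lower on day 10 only, 437 were lower on day 10 than on day 7 in passaged cells and 116 were higher in NP-ctrl. Of the 272 higher on day 10 only, 122 had become higher in passaged cells and 34 lower in NP-ctrl. Of the 275 lower on day 7 only, 113 had become higher in passaged cells and 28 lower in NP-ctrl, and of the 198 higher on day 7 only, 76 had become lower in passaged cells and 56 higher in NP-ctrl. The rule for these groups requires that the ratio moved, so these counts describe which arm moved and not that a change took place.

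**Figure D5:**
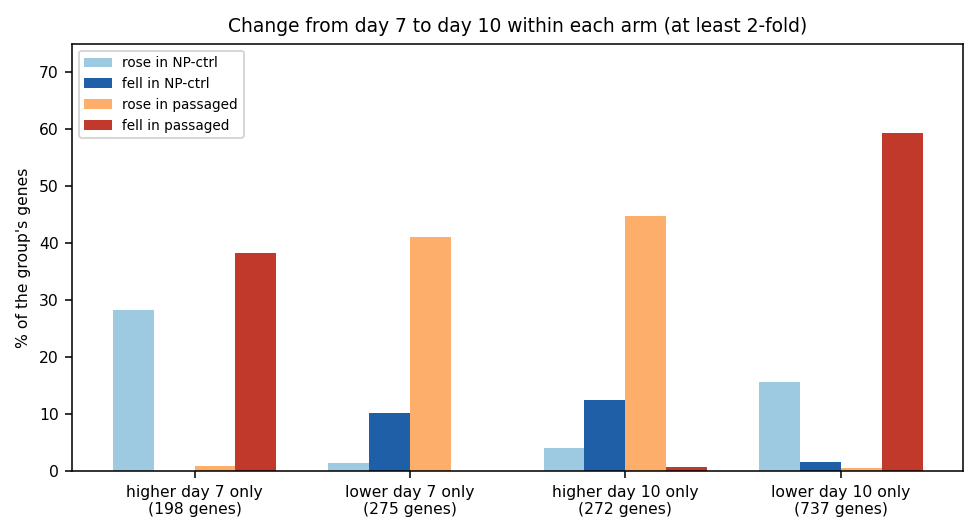
Share of the genes in each one-day group, in percent, that were at least 2-fold higher (rose) or lower (fell) on day 10 than on day 7 within NP-ctrl or within passaged cells. In each of the 4 groups the larger bar belongs to passaged cells, as in the 437 of 737 genes lower on day 10 only.

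The 73 genes with opposite calls were 49 that were higher in passaged cells on day 7 and lower on day 10, and 24 the other way round. EDN1, endothelin, had 2.97 and 8.98 FPKM in NP-ctrl and 27.1 and 2.91 in passaged cells, 9.13-fold higher and then 3.09-fold lower. DKK1, a secreted WNT antagonist, had 3.97 and 18.0 against 9.55 and 2.87, and HEY1, a NOTCH target, 1.62 and 8.15 against 7.11 and 2.44. PMEL, a pigment cell protein, went the other way, with 27.5 and 6.37 FPKM in NP-ctrl and 7.03 and 17.5 in passaged cells. None of the 73 passed edgeR, whose fit assumes 1 arm difference for both days.

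Non-coding genes followed the same groups. MIR503HG, the host transcript of a microRNA cluster, had 40.4 and 51.1 FPKM in NP-ctrl and 0.91 and 0.61 in passaged cells. LINC00261, a neighbour of FOXA2, had 5.67 and 5.60 FPKM in NP-ctrl and 0.07 and 0.02 in passaged cells. LINC01695 had 5.08 and 3.09 FPKM in NP-ctrl and 0 counts in both passaged libraries, at least 135-fold and at least 83.3-fold lower. GATA2-AS1, antisense to GATA2, was 11.6-fold and 11.8-fold higher, and the strand used for counting was not stated, so its reads and those of GATA2 cannot be told apart.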

How the data were processed

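RNA of H1 cells was sequenced in bulk, with 1 library for each arm and day. The authors trimmed reads with Cutadapt (version 1.9.1), aligned them with HISAT2 (version 2.0.1) to hg38 and counted them per Ensembl gene with HTSeq (version 0.6.1), as named in the methods and the submitters' processing notes. They deposited whole-number counts and FPKM values for 60605 genes. The authors' FPKM could be recomputed from the counts to within 0.005. The labels name SMRTbell, a long-read library kit, beside these short-read tools, so lengths and TPM carry that doubt. Whether counting used strand was not given in the sources used here.

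Groups came from the sample titles. Passaged and NP-ctrl were compared within each day, with counts of 3 or less set to 3, at least 2-fold, and an exact 95% Clopper-Pearson interval off 1. Deposited counts were tested with edgeR (version 4.0.16, run in R 4.3.3, quasi-likelihood), with TMM, day as a block and Benjamini-Hochberg adjustment over 16095 genes. Its p-values measure only the spread between these samples. Other settings used DESeq2 (version 1.42.0) and limma (version 3.58.1).

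The comparison and the 42 gene lists (734 genes) were chosen with earlier results of these data known. Named genes were protein-coding with at least 5 FPKM in 1 of the 4 libraries: the 12 higher and 12 lower on both days with the largest smaller-of-2-days ratio, 6 for each one-day group and 6 with opposite calls by the ratio of ratios, up to 4 called members of each list and 1 uncalled member of high level, and 3 higher and 3 lower non-coding genes. Promoter sequences are from RefSeq, GRCh38.p14, and 11031 of 13723 protein-coding symbols matched. Symbols missing from the table were taken by identifier for 19913 of 20014 genes. These genes were named outside this rule, after their values were seen: ALB, ATP2A2, BUB1, CACNA1G, CCND1, CDH5, COL1A1, COL2A1, COL3A1, CPT1A, DES, ESAM, ETV2, FGF10, FGFR1, FN1, FOXC1, FOXC2, H19, HEYL, HNF4A, HOXB2, HOXB13, IGFBP7, ISL1, KCNJ2, LHX1, MYBPC3, MYL2, MYL7, MYOM2, NPPA, NR2F1, NR2F2, PDGFRA, PECAM1, PLN, PPARGC1A, RYR2, TBX2, TBX3, TBX5, TBX20, TNNT1, TNNT2 and TTN. A few genes that the rule named are not reported here.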

Additional observations from a re-analysis of the deposited data

Results flagged for a closer look

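The arm difference changed sign between the days, by the call rule on each day, for 73 genes, 49 of them higher in passaged cells on day 7 and lower on day 10. The values below are the log2 ratio on day 10 minus that on day 7. The difference between the days was not tested, since each arm has 1 library a day, and its interval covers counting error only. Of the genes higher on day 7 and lower on day 10, the endothelin gene EDN1 had -4.818, the angiopoietin gene ANGPT2 -4.469, the WNT antagonist DKK1 -3.916, the lipase inhibitor G0S2 -3.827, the endothelial factor ETV2 -3.800 and the potassium channel KCNJ2 -2.948. The NOTCH target genes HEYL and HEY1 had -4.428 and -3.870, the endothelial adhesion gene ESAM -2.698 and the forkhead factor FOXC1 -2.643. In the other direction CPT1A, the carnitine transferase of fatty acid import, had 2.235, PMEL 3.422 and the LIM homeobox factor LHX1 4.683.

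ANGPT2 had 1.15 and 1.15 FPKM in NP-ctrl on days 7 and 10 and 12.3 and 0.55 FPKM in passaged cells. G0S2 had 2.58 and 54.4 against 5.56 and 8.25, and HEYL 0.37 and 1.99 against 1.36 and 0.34. CPT1A had 2.55 and 4.91 against 1.27 and 11.5, and LHX1 was at or under 0.51 FPKM in every library. ANGPT2 lost its day 10 call with TMM and with the mitochondrial genome left out, G0S2 and LHX1 lost a call with TPM, and CPT1A lost a call under each of these scalings.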

How the results depend on the processing

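At 4-fold in place of 2-fold, 274 genes were higher and 850 lower on both days, 46 higher and 27 lower on day 7 only, and 37 higher and 186 lower on day 10 only. With a difference of 1 on log2(FPKM + 1), 487 were higher and 845 lower on both days, and 130 higher and 128 lower on day 7 only. With TPM, 156 were higher on day 10 only. edgeR called 2068 genes higher and 2235 lower when the NP-IWP2 libraries of both days joined the fit, and 562 and 727 without the day block. limma on log2(FPKM + 1) called 731 higher. DESeq2 called 1167 higher and 1460 lower. The cause was not tested. TMM, totals without the mitochondrial genome and log2(FPKM + 0.1) left all 6 counts of the both-day and one-day groups within 1.5 times. Of 71 named genes higher on both days and 72 lower on both, all kept their group under TMM and under totals without the mitochondrial genome, and 67 and 72 kept it under TPM (MT-ND2, MT-ND4L, SIX2 and NES did not). TMM, TPM and totals without the mitochondrial genome each move the log2 ratio of every gene by the same amount on a day. The largest move was -0.29, with TPM on day 10. A call of at least 2-fold could therefore not change direction, and its absence is no sign of robustness. Medians near 0 changed sign with the scaling for G2 and mitosis, S phase, basement membrane and other mesoderm factors on day 7. So did those of blood on day 10 and of WNT targets on both days. The labels give no replicate numbers, so day was the only pairing, and the counts without it are those given for the fit without the day block. With 1 library per arm and day, culture and arm cannot be told apart, and a count of 0 allows up to 2.26e-05% of a library.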
